A study of Mus musculus with 9 samples.

Results

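The uroplakins and keratin 20 are the best-known products of the surface cells of the urothelium, the lining of the bladder and urethra. Their genes were followed here in RNA-seq of mouse prostate basal-derived organoids. The members were taken by name, with earlier results of these data known: Upk1a, Upk1b, Upk2, Upk3a, Upk3b and Krt20, 6 of the 52248 named genes in the table. Upk2 and Upk3b averaged under 1 CPM (counts-per-million values of the reads assigned to genes) over the 9 libraries, so 4 of the 6 members entered the test across genes.

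The organoids were grown from prostate basal cells of male mice carrying floxed Mpc1 alleles, on a mixed C57BL/6N and C57BL/6J background. Mpc1 encodes a subunit of the mitochondrial pyruvate carrier, which brings pyruvate into the mitochondrial matrix. In the Mpc1-KO group, basal cells received a lentivirus with Cre recombinase and red fluorescent protein (RFP), which removes the floxed part of Mpc1, and the labels give no drug for them. In the UK5099 group, organoids were treated with 10 µM of the carrier inhibitor UK5099 for 1 week. In the vehicle group, organoids were given vehicle for the same time, and their labels name the control virus with RFP alone, whereas those of the UK5099 group name no virus. All 3 groups shared the Mpc1 floxed genotype, and only the Mpc1-KO labels name Cre. After infection, RFP-positive cells were sorted out of a first round of organoids. No age is stated for these mice. Each group had 3 libraries. The labels do not say whether these came from separate cultures or animals, and the p-values below measure only the spread between these libraries.

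Uroplakins build the rigid plaques, known as the asymmetric unit membrane, that cover the apical surface of umbrella cells, the superficial cells of the urothelium. The tetraspanins uroplakin 1a and 1b leave the endoplasmic reticulum only in pairs: 1a with uroplakin 2, and 1b with uroplakin 3a or 3b, except that 1b can also reach the surface on its own. The paired plaques are carried to the apical membrane in discoidal vesicles. Keratin 20 is a type I keratin that also marks the last stage of umbrella cell differentiation, and it is made as well in the gut epithelium and in Merkel cells of the skin. In the prostate, cells near the urethra share several genes with the urothelium.

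Mpc1 itself was at 0.522, 0.533 and 0.598 CPM in Mpc1-KO libraries 1 to 3, against 2.04 to 2.47 CPM with UK5099 and 2.36 to 2.41 CPM with vehicle. Depth ran from 16.5 to 28.7 M reads assigned to genes, and a floor of 3 reads corresponded to 0.104 to 0.182 CPM. UK5099 library 1 stood apart from the other UK5099 libraries on the second principal component, at 27.2 against -9.10 and -15.0. Its CPM values are therefore given apart for each member, while group means and fold changes include it unless stated. Vehicle library 1 was shifted the same way within its group, at 21.3 against 10.3 and 10.4. The median SD between libraries on the log2 scale was 0.0608 in Mpc1-KO, 0.181 with UK5099 and 0.0876 with vehicle. The lists of genes active in secretory prostate cells and seminal vesicle were nearly silent, at summed levels of at most 0.962 CPM and 0.182 CPM in any library. The basal keratin gene Krt5, by contrast, averaged 2088 CPM in Mpc1-KO, 6488 CPM with UK5099 and 1629 CPM with vehicle.

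The promoters of the members that changed are shown first, since Krt20 and Upk1a were higher with UK5099 and Upk3a was lower. RefSeq start sites on GRCm38.p6 were found for 4 of the 6 members, by symbol: Krt20, Upk1a, Upk3a and Upk3b. The deposited values were made on GRCm39, so these positions belong to the sequence only. Each line gives the 120 bases before the annotated start, 5′ to 3′ on the gene's strand, and capitals mark a TATA box (TATANA), a GC box (GGGCGG) or a nuclear receptor half-site (AGGTCA) on either strand. Krt20 lies at chr11:99438154-99438273 on the minus strand, Upk1a at chr7:30612735-30612854 on the minus strand and Upk3a at chr15:85017021-85017140 on the plus strand.
Krt20: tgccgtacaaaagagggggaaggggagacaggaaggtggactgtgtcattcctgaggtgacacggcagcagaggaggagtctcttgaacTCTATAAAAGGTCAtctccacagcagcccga
Upk1a: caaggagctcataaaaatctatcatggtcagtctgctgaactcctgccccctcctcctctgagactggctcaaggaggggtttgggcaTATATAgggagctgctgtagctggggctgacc
Upk3a: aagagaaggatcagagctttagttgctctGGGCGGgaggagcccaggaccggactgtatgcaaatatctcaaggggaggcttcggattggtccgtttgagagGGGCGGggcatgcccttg

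Krt20 and Upk1a each carried a TATA box at the usual place, 29 and 32 bases before the start. On the other strand the same letters overlapped them, at 31 bases in Krt20 and at the same 32 bases in Upk1a. Upk3a had none there, and its window held a GC box 18 bases and another 91 bases before the start, with TATA letters only far upstream, at 216 bases. The half-site AGGTCA, the sequence read by nuclear receptors such as the retinoic acid receptors, directly followed the Krt20 TATA box at 23 bases and stood at 155 bases in Upk3b. Over all 32851 RefSeq windows of 300 bases (250 before the start to 50 after it), 24.7% held TATANA, 35.7% GGGCGG and 16.3% AGGTCA on either strand. AGATAA, the site of GATA factors, was in 11.2% of windows and occurred on the opposite strand of Krt20, 223 bases before the start, and of Upk3a, at 188 bases. GCGTG, the core bound by the aryl hydrocarbon receptor, was in 32.4% of windows and in none of the 4 members. These are matches of letters and were not tested for binding.

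Krt20 had 17.8, 13.2 and 15.2 CPM in Mpc1-KO libraries 1 to 3, 71.8, 257.9 and 195.3 CPM in UK5099 libraries 1 to 3, and 14.5, 12.3 and 16.5 CPM in vehicle libraries 1 to 3. The UK5099 libraries were all above every other library, while Mpc1-KO and vehicle libraries overlapped. Krt20 averaged 175.0 ± 94.7 CPM with UK5099 and 14.4 ± 2.09 CPM with vehicle (SD, n = 3 each), a 12.1-fold difference in mean CPM. On the scale of log2(CPM + 0.5), on which all fold changes below are given, Krt20 rose by 3.38 ± 0.37 (SE, 95% interval 2.54 to 4.21, limma, adjusted p = 8.48e-05). Only 43 of the 12396 genes tested had a higher fold change in that comparison.

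UK5099 library 1 was the lowest of its group for Krt20, at 4.98 times the vehicle mean, against 17.9 times in library 2 and 13.5 times in library 3. The mean of libraries 2 and 3 was 3.15-fold that of library 1. Without library 1 the log2 difference was 3.92, and the call did not depend on it.

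**Figure D1:**
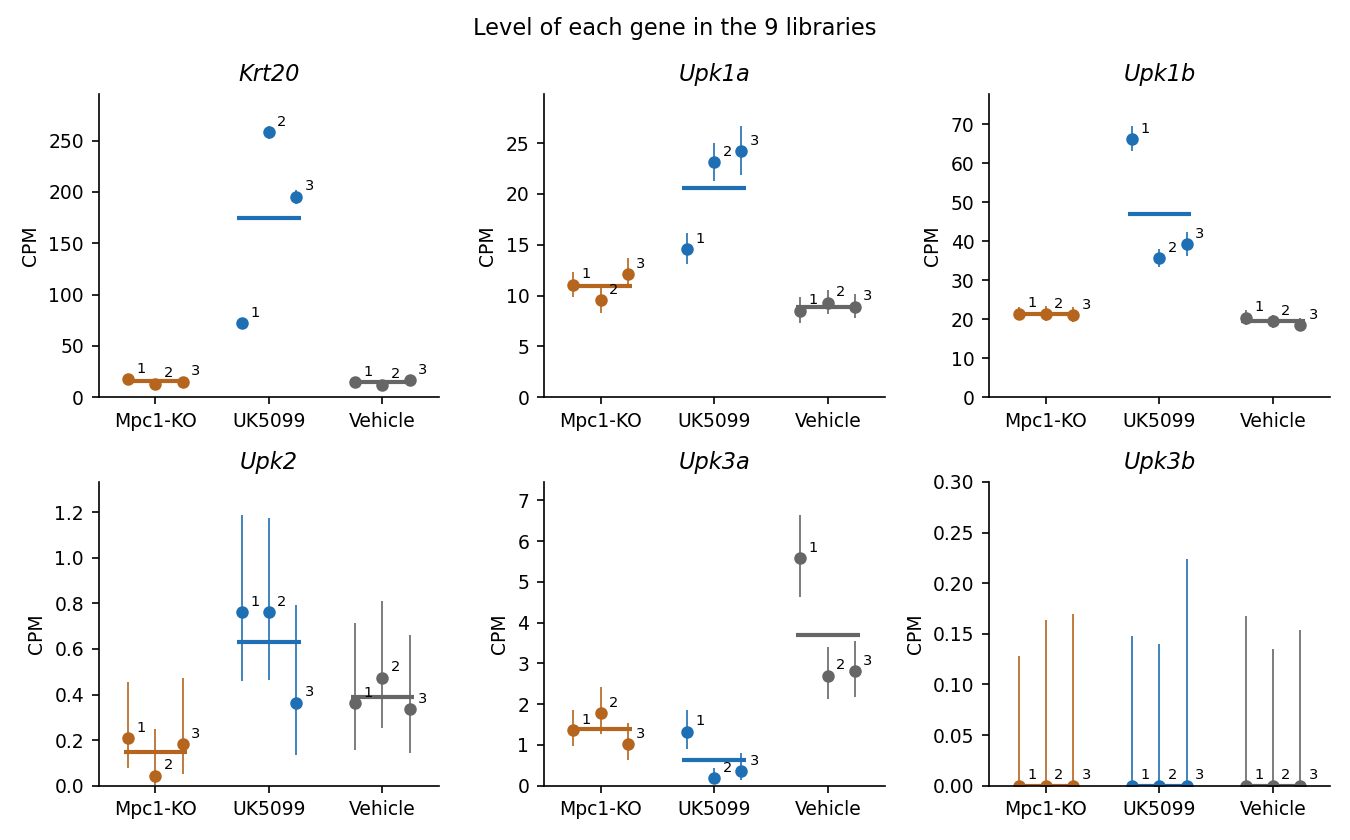
CPM of each of the 6 genes (vertical axes, each panel on its own scale from 0) in the Mpc1-KO, UK5099 and vehicle libraries, numbered as in the text. Points are libraries, thin bars are exact Poisson 95% intervals of the reads (counting error only) and thick lines are group means: the UK5099 points of Krt20, from 71.8 to 257.9 CPM, lie above all others, and Upk3b is at 0 throughout.

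Upk1b, the tetraspanin partner of uroplakins 3a and 3b, had 66.3, 35.7 and 39.3 CPM in UK5099 libraries 1 to 3 and 20.4, 19.4 and 18.6 CPM in vehicle libraries 1 to 3. All UK5099 libraries were above all vehicle libraries. Upk1b averaged 47.1 ± 16.7 CPM with UK5099 and 19.5 ± 0.935 CPM with vehicle (SD, n = 3 each) and rose by 1.20 ± 0.19 on the log2 scale (SE, 95% interval 0.78 to 1.62, limma, adjusted p = 6.95e-04). Here UK5099 library 1 was the highest, not the lowest, at 3.40 times the vehicle mean and 1.77 times the mean of libraries 2 and 3, which were at 1.84 and 2.02 times the vehicle mean. Without library 1 the log2 difference was 0.93.

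Upk1a, the tetraspanin partner of uroplakin 2, had 14.6, 23.1 and 24.2 CPM in UK5099 libraries 1 to 3 and 8.52, 9.31 and 8.91 CPM in vehicle libraries 1 to 3. The groups did not overlap. Upk1a averaged 20.6 ± 5.28 CPM with UK5099 and 8.91 ± 0.395 CPM with vehicle (SD, n = 3 each), and rose by 1.13 ± 0.18 on the log2 scale (SE, 95% interval 0.74 to 1.53, limma, adjusted p = 7.30e-04). As for Krt20, library 1 was the lowest, at 1.63 times the vehicle mean against 2.59 and 2.72 times in libraries 2 and 3.

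Upk1b and Upk1a thus had similar fold changes, but UK5099 library 1 was the highest of its group for Upk1b and the lowest for Upk1a. The ratio of Upk1b to Upk1a CPM was 4.55 in UK5099 library 1 and 1.55 and 1.62 in UK5099 libraries 2 and 3, against 2.40, 2.09 and 2.08 in vehicle libraries 1 to 3. UK5099 library 1 was above, and the other two UK5099 libraries were below, every vehicle library. Mpc1-KO libraries had ratios of 1.93, 2.23 and 1.74.

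Upk3a was the member that fell. This gene, whose protein is the single-pass partner of uroplakin 1b and is needed for normal plaques in mice, had 1.32, 0.190 and 0.364 CPM in UK5099 libraries 1 to 3 (33, 5 and 6 reads) and 5.57, 2.70 and 2.80 CPM in vehicle libraries 1 to 3 (123, 74 and 67 reads). All UK5099 libraries were below all vehicle libraries, and vehicle library 1 was the highest of the 9. Upk3a averaged 0.626 ± 0.610 CPM with UK5099 and 3.69 ± 1.63 CPM with vehicle (SD, n = 3 each). It fell by 1.96 ± 0.37 on the log2 scale (SE, 95% interval -2.79 to -1.13, limma, adjusted p = 0.00228), and 95 of the 12396 genes tested had a lower fold change.

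Library 1 again differed from the rest of its group for Upk3a. The vehicle mean was 2.79 times the level of UK5099 library 1 and 13.3 times the mean of UK5099 libraries 2 and 3, and the log2 difference was -2.37 without library 1. At levels this low the fold change also depended on the pseudocount, from -2.64 with 0.1 CPM to -1.10 with 2 CPM, and the gene passed the test with each.

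Upk2, the partner of uroplakin 1a, was close to the floor of detection. It had 0.762, 0.761 and 0.364 CPM in UK5099 libraries 1 to 3 (19, 20 and 6 reads) and 0.362, 0.474 and 0.335 CPM in vehicle libraries 1 to 3 (8, 13 and 8 reads). UK5099 library 3 lay within the vehicle range. It averaged 0.629 ± 0.230 CPM with UK5099 and 0.390 ± 0.0741 CPM with vehicle (SD, n = 3 each), and an exact permutation test of the means did not pass (two-sided p = 0.2, where 0.1 is the smallest that 3 against 3 libraries allow).

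Upk3b, the alternative partner of uroplakin 1b and a gene also known from the mesothelium, had no read in any of the 9 libraries. Over all 214 M reads, the floor of 3 reads corresponded to 0.0140 CPM. Its neighbour and relative Upk3bl, which is not one of the 6 members, was detected in every library, with 2.93, 6.21 and 5.70 CPM in UK5099 libraries 1 to 3 and 3.04, 2.63 and 2.63 CPM in vehicle libraries 1 to 3. Upk3bl rose by 0.68 ± 0.24 on the log2 scale (limma, adjusted p = 0.0452), although UK5099 library 1 lay within the vehicle range.

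In the comparison of UK5099 with vehicle, 3 of the 4 members tested rose and 1 fell, where 38.1% of all 12396 genes tested passed, 19.9% of all upwards and 18.2% of all downwards. For genes whose UK5099 and vehicle libraries did not overlap, the share was 45.7%, and all 4 of these members were among them. The members were chosen with earlier results of these data known, so these shares describe them and are no test of the group. In bulk RNA, more cells of a type and more RNA in each cell cannot be told apart.

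**Figure D2:**
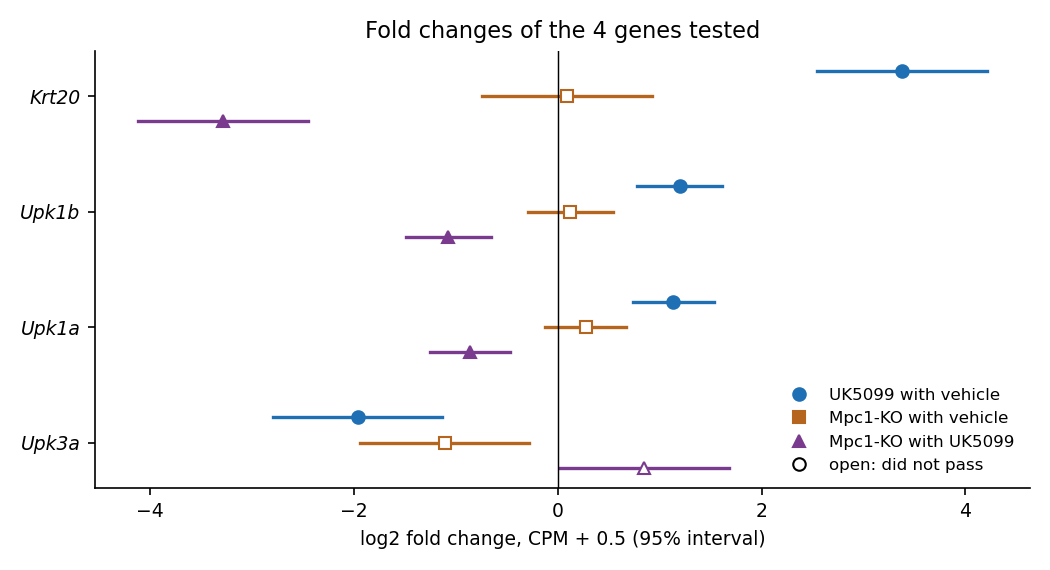
Fold changes of the 4 members tested in the 3 comparisons, on the scale of log2(CPM + 0.5), with 95% intervals from limma, filled where the adjusted p was below 0.05. Krt20, Upk1b and Upk1a lie at 3.38, 1.20 and 1.13 and Upk3a at -1.96 with UK5099 against vehicle, and no marker of Mpc1-KO against vehicle is filled.

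Mpc1-KO was compared with vehicle to see how the members stood after deletion of the carrier gene. None of the 4 members tested passed in Mpc1-KO against vehicle, where 10.7% of all genes tested did, 5.64% upwards and 5.03% downwards. This comparison uses the same vehicle libraries as the one with UK5099. Krt20 averaged 15.4 ± 2.30 CPM in Mpc1-KO and 14.4 ± 2.09 CPM with vehicle (SD, n = 3 each), a log2 difference of 0.09 with an interval of -0.74 to 0.93 (limma, adjusted p = 0.898).

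Upk1b had 21.4, 21.3 and 21.1 CPM in Mpc1-KO libraries 1 to 3, and all 3 lay just above the vehicle libraries. Its log2 difference of 0.12 had an interval of -0.29 to 0.54 (limma, adjusted p = 0.706). Upk1a had 11.1, 9.56 and 12.1 CPM in Mpc1-KO libraries 1 to 3, again all above the vehicle libraries, with a log2 difference of 0.27 and an interval of -0.12 to 0.67 (limma, adjusted p = 0.353). For both tetraspanin genes the upper end of the interval lay below the lower end found with UK5099. The spread of the UK5099 libraries entered these intervals. Without UK5099 library 1 the adjusted p by limma was 0.0556 for Upk1a and 0.183 for Upk1b. With only the 6 Mpc1-KO and vehicle libraries it was 0.0618 and 0.159, so a small rise of Upk1a in Mpc1-KO stays undecided.

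Upk3a was the member nearest to the threshold. It had 1.36, 1.78 and 1.01 CPM in Mpc1-KO libraries 1 to 3 (39, 40 and 22 reads), all below the vehicle libraries, and averaged 1.38 ± 0.384 CPM in Mpc1-KO and 3.69 ± 1.63 CPM with vehicle (SD, n = 3 each). The log2 difference was -1.11 ± 0.37 (SE, 95% interval -1.94 to -0.28), and the adjusted p was 0.0868 by limma in the fit of all 9 libraries. The spread of UK5099 library 1 entered that fit: without it the adjusted p was 0.00852 by limma, and with only the 6 Mpc1-KO and vehicle libraries it was 0.00632. Without vehicle library 1, the highest, the log2 difference was -0.81 (limma, adjusted p = 0.260). Upk3a also did not pass when any other vehicle or Mpc1-KO library was left out. The adjusted p by limma then ran from 0.133 without vehicle library 2 to 0.264 without Mpc1-KO library 3, with log2 differences of -1.27 and -0.96. Whether Upk3a passed as lower in Mpc1-KO therefore rested on which libraries entered the fit.

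Upk2 had 0.209, 0.0444 and 0.184 CPM in Mpc1-KO libraries 1 to 3 (6, 1 and 4 reads), all below the vehicle libraries. The Mpc1-KO mean was 0.146 CPM and the vehicle mean 0.390 CPM, 11 against 29 reads in all, and the exact permutation test gave the smallest p that the design allows (two-sided p = 0.1). Of the 5 members with any read, Upk1a, Upk1b, Upk2 and Upk3a had no overlap between Mpc1-KO and vehicle, where 49.7% of the genes tested had none.

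The 2 interventions on the carrier were compared with each other directly. In Mpc1-KO against UK5099, Krt20 was lower by 3.28 ± 0.37 on the log2 scale (SE, 95% interval -4.12 to -2.45, limma, adjusted p = 1.13e-04). Upk1b was lower as well, at -1.07 (interval -1.49 to -0.66, limma, adjusted p = 0.00140), and so was Upk1a, at -0.86 (interval -1.26 to -0.46, limma, adjusted p = 0.00361). For these 3 genes all Mpc1-KO libraries were below all UK5099 libraries. With 3 of 4 members tested past the threshold, all downwards, the background was 44.4% in either direction, 23.2% downwards, and 54.9% without overlap.

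Upk3a had a log2 difference of 0.85 between Mpc1-KO and UK5099 (interval 0.02 to 1.68) and did not pass (limma, adjusted p = 0.0876), and UK5099 library 1, at 1.32 CPM, lay within the Mpc1-KO range. Without that library the difference was 1.27 and passed (limma, adjusted p = 0.00366). Upk2 was 4.32-fold lower in mean CPM in Mpc1-KO than with UK5099, with no overlap and an exact permutation p of 0.1, the smallest possible (two-sided). In the alternative fit with no filter on low values, it was lower by 0.79 on the log2 scale and passed (limma, adjusted p = 0.011).

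**Figure D3:**
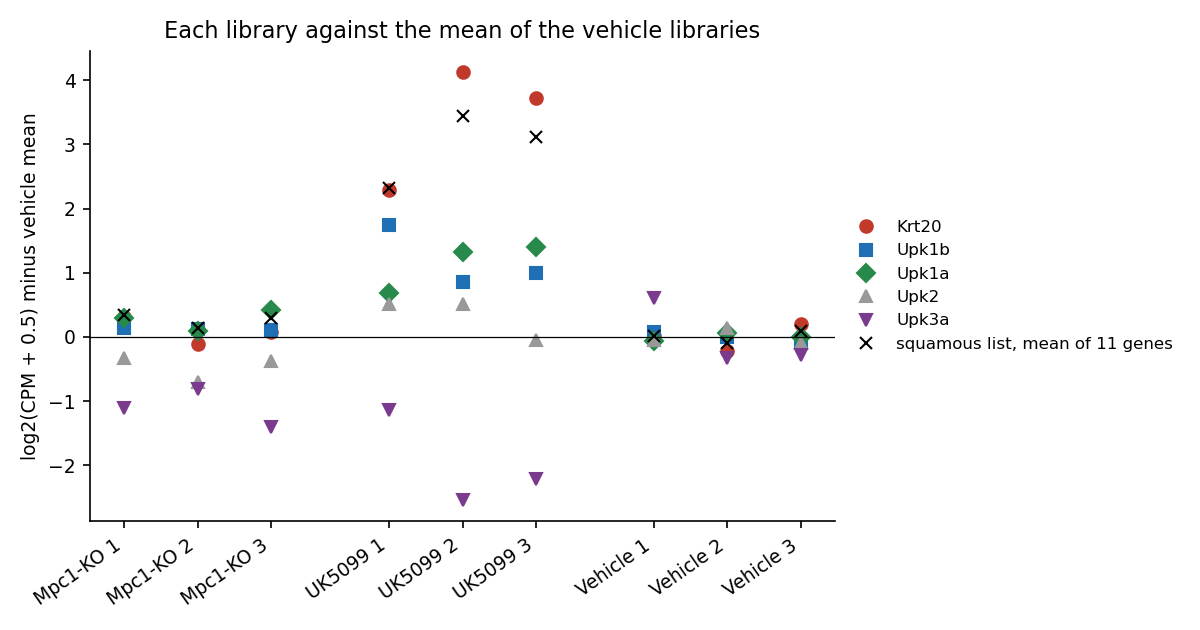
Difference of each library from the vehicle mean on the scale of log2(CPM + 0.5) (vertical axis) for the 5 members with reads, and for the mean of 11 squamous genes (crosses). In UK5099 library 1 Krt20 and Upk1a are lower and Upk1b is higher than in UK5099 libraries 2 and 3, and the squamous mean follows at 2.32, 3.43 and 3.11.

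Per kilobase of annotated exon, which allows levels of different genes to be set side by side, Upk1b led in Mpc1-KO with 10.2 CPM per kb, followed by Krt20 at 8.01 and Upk1a at 7.68, then Upk3a at 1.26 and Upk2 at 0.135. With vehicle the order was the same, with 9.32, 7.49, 6.27, 3.38 and 0.361 CPM per kb. Krt20 and Upk1a overlapped in both groups, and all other neighbours in the order were apart. With UK5099, Krt20 moved to the top at 90.8 CPM per kb, followed by Upk1b at 22.5 and Upk1a at 14.5, while Upk2 at 0.581 and Upk3a at 0.573 overlapped.

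Summed over the uroplakin genes, the level was 34.0, 32.7 and 34.4 CPM in Mpc1-KO libraries 1 to 3, 82.9, 59.8 and 64.2 CPM with UK5099, and 34.9, 31.9 and 30.6 CPM with vehicle. The sum was thus higher in every UK5099 library than in any other, and most of it was Upk1b. The share of Upk1b was 79.9% in UK5099 library 1 and between 58.6% and 65.2% in the other 8 libraries. Among the genes that reached a mean of 1 CPM, the mean of Krt20 stood at the 71.3 percentile, Upk1b at 51.3, Upk1a at 33.8 and Upk3a at 7.21, so that even the leading uroplakin was a gene of middling level in these organoids.

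Every 50-base stretch of the 6 genes was unique to its gene among GENCODE M21 transcripts, at the read length of 50 bases, and no annotated gene overlapped them. Reads of related genes are therefore not expected to be shared among annotated transcripts. Copies elsewhere in the genome were not searched. The nearest protein-coding genes on either side of the members with reads were read from the same annotation, and whether they resembled a member more than other genes do was not tested. Cox6b1, 4.01 kb from Upk1a, encodes a subunit of cytochrome c oxidase and rose by 0.36 on the log2 scale with UK5099 (limma, adjusted p = 4.91e-04). Zbtb32, on the other side of Upk1a, averaged 1.58 CPM with UK5099 and 0.506 CPM with vehicle and was not tested. B4galt4, 4.14 kb from Upk1b and coding for a galactosyltransferase, did not pass (-0.18, limma, adjusted p = 0.552). Fam118a, 6.40 kb from Upk3a, just missed the threshold with UK5099 (-0.74, limma, adjusted p = 0.0506) and did not pass in Mpc1-KO (0.17, limma, adjusted p = 0.720). On the other side of Upk3a, 5031439G07Rik did not pass with UK5099 (-0.09, limma, adjusted p = 0.499). It fell by 0.54 in Mpc1-KO (limma, adjusted p = 0.0103). Krt12, the corneal keratin next to Krt20, averaged 0.494 CPM with UK5099 and 0.0412 CPM with vehicle, under the level needed for the test, and Krt23 on the other side of Krt20 rose by 1.11 with UK5099 (limma, adjusted p = 0.00123) and by 0.86 in Mpc1-KO (limma, adjusted p = 0.0220).

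Lists of genes that work with the uroplakins were set beside them, with the median fold change of all genes at 0.04 for UK5099 and -0.01 for Mpc1-KO, both against vehicle. Of all 12396 genes tested, 19.9% rose and 18.2% fell with UK5099, and 5.64% rose and 5.03% fell in Mpc1-KO. These shares are the background for every list count below. Of 10 transcription factors of the urothelium, 4 rose and none fell with UK5099, with a median of 0.19. Rxra, the partner receptor of the retinoic acid receptors, rose by 0.74 (limma, adjusted p = 2.96e-05), Rarg by 0.54, Grhl3, which drives terminal differentiation of umbrella cells in mice, by 0.80, and Tbx3 by 0.27. Pparg, a master regulator of urothelial differentiation, averaged 34.4 ± 9.96 CPM with UK5099 and 36.2 ± 2.40 CPM with vehicle (SD, n = 3 each) and did not pass (limma, adjusted p = 0.631). In Mpc1-KO, 3 of these 10 rose, Gata3 by 0.53, Foxa1 by 0.27 and Rarg by 0.24, and none fell. The counts depended on UK5099 library 1: without it, 7 of 10 rose with UK5099 and 8 of 10 in Mpc1-KO. The background moved as well. Without that library 2616 of 12359 genes tested rose with UK5099, against 2462 of 12396 with it, and 1746 rose in Mpc1-KO, against 699. Those that fell numbered 3057 with UK5099, against 2259, and 1848 in Mpc1-KO, against 624. Each recount below without UK5099 library 1 has this background.

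Of 7 tested genes for the delivery of uroplakin vesicles to the apical membrane, 3 rose and 1 fell with UK5099 (median 0.35). The shares of all genes were 19.9% and 18.2%. Mal, a proteolipid that helps these vesicles to fuse with the apical membrane in mice, rose by 2.93, averaging 311.9 ± 103.5 CPM with UK5099 and 39.0 ± 2.68 CPM with vehicle (SD, n = 3 each, limma, adjusted p = 4.95e-06). Rab27b, a small GTPase found on these vesicles, rose by 0.94 and Rab11a by 0.54, while the motor gene Myo5b fell by 0.15. In Mpc1-KO, Rab27b fell by 0.37 and the other 6 did not pass. Without UK5099 library 1 the count was 1 up and 2 down, where 1746 and 1848 of all 12359 genes passed. Snx31, a sorting nexin of uroplakin degradation, averaged 0.0538 CPM in Mpc1-KO, 0.205 CPM with UK5099 and 0.0441 CPM with vehicle.

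The other keratins and junction genes of umbrella cells did not go with Krt20. Of 8 tested, 1 rose and 4 fell with UK5099 (median -0.23), where 19.9% of all genes rose and 18.2% fell. Krt18 fell by 0.54 and Krt8 by 0.55, from 1308 and 766.8 CPM with vehicle. The authors use both as markers of prostate luminal cells, so they are not particular to umbrella cells. Ocln fell by 0.39, and Tjp1 rose by 0.29. None of the 8 passed in Mpc1-KO, and 1 fell without UK5099 library 1, where 1848 of all 12359 genes fell. Among 7 genes of basal and intermediate urothelial cells, which basal prostate cells also express, 6 rose and none fell with UK5099 (median 1.54), with Krt5 up by 1.99, Krt14 by 1.86, Trp63 by 0.78 and Krt13 by 5.32. Krt13 averaged 482.8 CPM with UK5099 and 11.6 CPM with vehicle. In Mpc1-KO, 2 of the 7 rose, Krt5 by 0.36 and Krt13 by 0.97, where 5.64% of all genes rose.

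Of 5 genes of luminal cells of the proximal prostate and urethra, 3 rose with UK5099, Ly6d by 2.68, Krt4 by 2.79 and Psca by 2.54, and 2 fell, among them Clu, which was lower by 2.90. In Mpc1-KO only Clu passed among them, lower by 1.09, and without UK5099 library 1 the count in Mpc1-KO was 2 up and 1 down. Upk1a and Upk1b belong to the tetraspanin family, and of its 24 other members tested, Upk3bl counted with them, 8 rose and 9 fell with UK5099 (median -0.07). The background for both lists was 19.9% of all genes upwards and 18.2% downwards. Tspan8 rose by 0.85, Tspan6 by 1.62 and Tspan3 by 0.83, and Cd82 fell by 0.85. In Mpc1-KO 3 of the 24 rose and 5 fell, Tspan2 by 1.06, and without UK5099 library 1 the count was 6 up and 7 down. The background for both lists in Mpc1-KO was 5.64% upwards and 5.03% downwards. Without that library it was 1746 up and 1848 down of all 12359 genes.

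**Figure D4:**
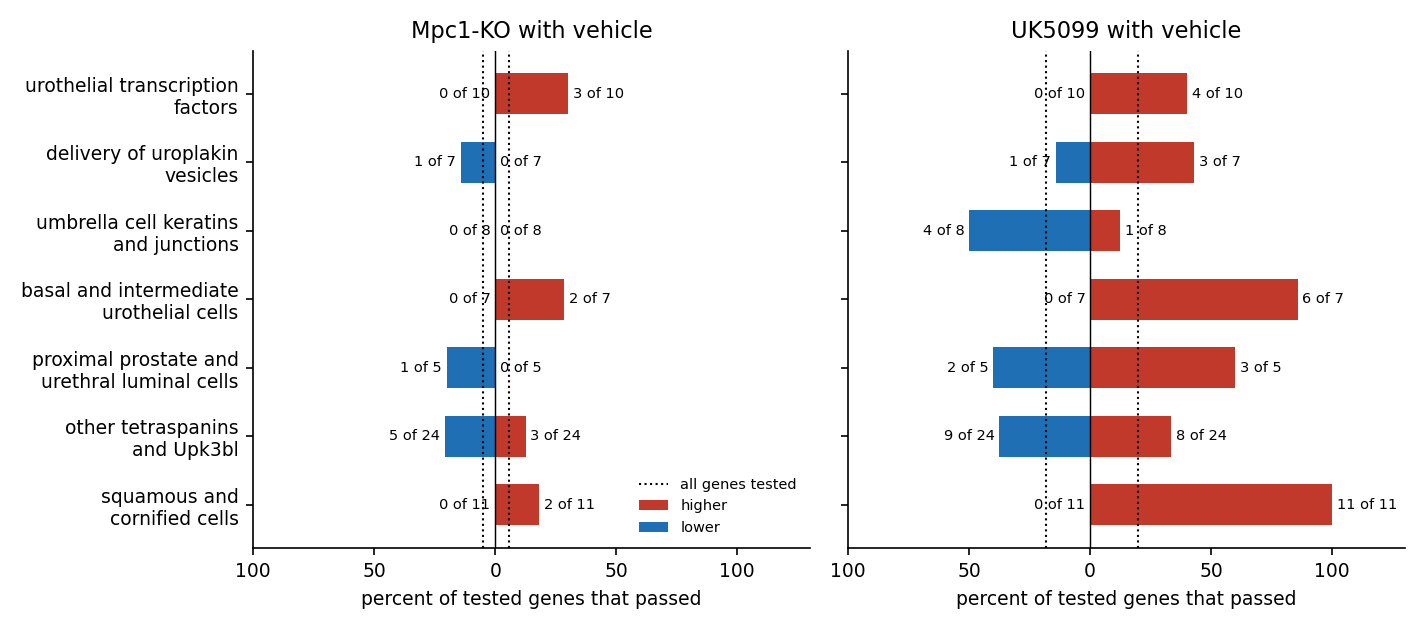
Percent of the tested genes of each list that passed limma's test upwards (red, to the right) or downwards (blue, to the left), for Mpc1-KO against vehicle (left panel) and UK5099 against vehicle (right panel). Dotted lines mark the shares of all 12396 genes tested: all 11 squamous genes tested lie to the right with UK5099, and 4 of 8 umbrella cell keratin and junction genes lie to the left. The 11 include Cnfn, which reached the filter of 1 CPM only through the UK5099 libraries.

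Genes of squamous and cornified cells rose with UK5099, as did Krt20, Upk1a and Upk1b. Of 14 listed, 11 were tested, and all 11 rose with UK5099 (median 2.89), where 19.9% of all genes rose. Cnfn, among the 11, averaged 27.0 CPM with UK5099, 0.0430 CPM with vehicle and 0 CPM in Mpc1-KO. It reached the filter of 1 CPM only through the UK5099 libraries, so its rise adds nothing to the count. The median and the means of the 11 below include it. Krt6a rose by 2.96, Krt16 by 3.84, Krt10 by 6.80 and Ivl by 1.41. The summed level of the 14 was 1247 to 1433 CPM in Mpc1-KO, 3979 to 6886 CPM with UK5099 and 999.2 to 1102 CPM with vehicle. Among the UK5099 libraries the mean log2 difference of the 11 genes from vehicle was 2.32 in library 1, 3.43 in library 2 and 3.11 in library 3, the order also found for Krt20. Upk1b differed from it in being highest in library 1. In Mpc1-KO the mean difference was 0.35, 0.14 and 0.29, and 2 of the 11 passed, Ivl and Tgm1, both upwards, or 4 without UK5099 library 1. The background upwards was 5.64% of all genes, or 1746 of 12359 without that library. The part of squamous cells in the levels of Krt20 and the uroplakins was not tested.

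Markers of the other cell types known to express a member were also measured, and some of them were clearly detected. For the mesothelium, which expresses Upk3b, Wt1, Lrrn4, Gpm6a, Calb2 and Nkain4 averaged under 1 CPM, and Msln, at 186.0 CPM with UK5099 and 310.0 CPM with vehicle, fell by 0.73 with UK5099 and by 0.42 in Mpc1-KO. For the gut, which expresses Krt20, Cdx1 had no read in any library and the summed level of 4 genes was at most 1.88 CPM. For Merkel cells, which also express Krt20, Atoh1, their defining transcription factor, had no read in any library. Isl1 averaged 1.53 CPM with UK5099 and 0.498 CPM with vehicle, without overlap, as for 45.7% of the genes tested. Its mean over the 9 libraries was under 1 CPM, so it was not tested. Sox2, which is not restricted to them, averaged 39.5 CPM in Mpc1-KO, 47.9 CPM with UK5099 and 30.5 CPM with vehicle, and rose by 0.64 with UK5099. Piezo2, a mechanosensitive channel, averaged 2.33 CPM in Mpc1-KO, 3.09 CPM with UK5099 and 14.1 CPM with vehicle, and fell by 2.38 in Mpc1-KO and by 2.18 with UK5099. The 4 Merkel cell genes summed to 36.9 to 45.5 CPM in Mpc1-KO, 46.9 to 57.7 CPM with UK5099 and 43.2 to 46.8 CPM with vehicle.

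Most tested genes of mesenchymal cells fell with UK5099, as did Upk3a. Of 8 listed, 5 were tested, and 4 fell and 1, Dcn, rose with UK5099 (median -0.95), where 18.2% of all genes fell and 19.9% rose. Vim, the gene of the intermediate filament vimentin, averaged 42.8 ± 8.90 CPM in Mpc1-KO, 8.47 ± 2.25 CPM with UK5099 and 162.2 ± 30.4 CPM with vehicle (SD, n = 3 each). It fell with UK5099 (limma, adjusted p = 8.88e-07) and in Mpc1-KO (limma, adjusted p = 0.00127). The summed level of the 8 was 50.1 to 66.4 CPM in Mpc1-KO, 23.3 to 25.6 CPM with UK5099 and 138.6 to 206.6 CPM with vehicle, and the collagen gene Col1a2 had no read in any library. In Mpc1-KO 2 of the 5 fell and none rose, or 3 fell and 1 rose without UK5099 library 1. The background downwards was 5.03% of all genes, or 1848 of 12359 without that library. The part of these cells in the levels of Upk3a was not tested.

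The genes whose levels ran most like those of each member over the 9 libraries were looked up among 9927 genes that averaged 5 CPM or more, leaving out the members, predicted genes, Rik clones and pseudogenes. Likeness was Pearson's r on the log2 scale and is a description, since the libraries fall into groups. For Krt20 these were Cysrt1 (r = 0.998), Mall (0.997) and Cnfn (0.996), and their r without UK5099 library 1 was again 0.998, 0.997 and 0.996. Cysrt1 averaged 1.42 CPM in Mpc1-KO, 15.6 CPM with UK5099 and 1.11 CPM with vehicle. Cnfn, a gene of the cornified envelope, averaged 0, 27.0 and 0.0430 CPM in the same groups. Cysrt1 and Cnfn thus reached 5 CPM only through the UK5099 libraries, where Krt20 was also high, so their r mainly repeats that split. For Upk1a they were Psca (0.992), Hal (0.991) and Chp1 (0.990). Psca, the prostate stem cell antigen, averaged 264.6 CPM in Mpc1-KO, 1190 CPM with UK5099 and 184.7 CPM with vehicle.

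For Upk1b the closest were Vav3 (0.993), Socs5 (0.990) and Fbxw2 (0.989), none of which was among those of Krt20 or Upk1a, and their r without UK5099 library 1 was 0.988, 0.975 and 0.973. Vav3 averaged 56.3 CPM in Mpc1-KO, 86.8 CPM with UK5099 and 50.8 CPM with vehicle. For Upk3a they were Trim7 (0.987), St6gal1 (0.980) and Tpm1 (0.979), all lowest on average with UK5099. Tpm1, a tropomyosin of actin filaments, averaged 1255 CPM in Mpc1-KO, 931.0 CPM with UK5099 and 1605 CPM with vehicle, and St6gal1, a sialyltransferase, 25.3, 19.6 and 35.3 CPM in the same groups.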

How the data were processed

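Stranded mRNA libraries (KAPA) were sequenced by the authors as single 50-base reads on an Illumina HiSeq. Per the submitters' processing notes, STAR 2.7.9a, GRCm39 and Partek were used. The deposited values were CPM to which the authors had added 0.0001, in which 24 names had become spreadsheet dates. The 1 nameless entry, with up to 0.000715% of the reads, was left out. The authors compared groups with DESeq2, which was not repeated. The 0.0001 was subtracted. Depth was worked out from the step of 1 read. Below 1000 reads, 99.9% to 99.93% of values were whole to within 0.02. Poisson intervals (exact, 95%) cover counting error only. The 12396 genes that averaged 1 CPM or more were tested by limma 3.58.1 in R 4.3.3 on log2(CPM + 0.5), with a trend of variance on the mean and the 9 libraries in 1 fit (6 residual degrees of freedom, prior 3.88). Tests were two-sided and adjusted by Benjamini-Hochberg over all genes tested, at a threshold of 0.05. The procedure was tested on simulated data. Members under 1 CPM were compared by exact permutation tests. The members and lists were chosen with earlier results of these data known. By rule, up to 4 members of a list that passed with the smallest p were named, and the 3 genes most like a member; other genes were named for their role or position. Exon lengths and neighbours came from GENCODE M21, and promoters from RefSeq. Libraries of the same number deviated together between UK5099 and vehicle (correlations of 0.44, 0.14 and 0.31 across genes, although vehicle 2 correlated more with UK5099 3, at 0.26, and vehicle 3 with UK5099 2 gave 0.13) and not between Mpc1-KO and vehicle (-0.04, -0.02 and 0.09) or UK5099 (-0.12, -0.08 and 0.12). Paired by number, Krt20 was higher with UK5099 by 2.27, 4.34 and 3.53 on the log2 scale, and Upk3a differed by -1.74, -2.21 and -1.93. In all, 20 alternatives were run, of which limma-voom on the reads worked out from the CPM steps was chosen after seeing the data. Count-based alternatives planned on those reads were not run.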

Additional observations from a re-analysis of the deposited data

How the results depend on the processing

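The calls for Krt20, Upk1a and Upk1b in UK5099 against vehicle and in Mpc1-KO against UK5099 held in each of 20 alternatives, and that for Upk3a in UK5099 against vehicle in the 19 that kept the gene, a minimum of 5 CPM having removed it. The log2 differences with UK5099 against vehicle ran from 3.00 to 3.92 for Krt20, 1.00 to 1.36 for Upk1a, 0.93 to 1.37 for Upk1b and -2.83 to -1.10 for Upk3a. In Mpc1-KO against vehicle, 1 member (Upk3a) passed with only the 6 libraries of the comparison and 1 with a replicate block (limma, adjusted p = 0.0421), although these libraries share only a number, and leaving out 1 library gave 0 to 1. The block also let Upk3a pass in Mpc1-KO against UK5099 (limma, adjusted p = 0.0386) and changed no other member's call. With no filter on low values, Upk2 was tested too and passed in Mpc1-KO against UK5099 (-0.79, limma, adjusted p = 0.011). It did not pass in UK5099 against vehicle (0.32, limma, adjusted p = 0.287) or Mpc1-KO against vehicle (-0.47, limma, adjusted p = 0.219). Krt20, far from the threshold in Mpc1-KO against vehicle, ran from -0.013 (without vehicle library 2 or Mpc1-KO library 1) to 0.19 when 1 library was left out. The count of all genes in that comparison, 1323, was 761 without a filter, 4399 with only its 6 libraries and 310 to 3594 when 1 library was left out. With a replicate block, 4922 genes passed in UK5099 against vehicle, where 4721 did without it. The planned count-based alternatives were not run. Upk2 and Upk3a rest on few reads, and 3 libraries in a group limit every interval.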
